A study of Mus musculus with 18 samples.

Results

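Small nucleolar RNA (snoRNA) host genes were examined for MYC binding in mouse liver tumours. The 9 genes examined, Snhg1, Snhg3, Snhg5, Snhg6, Snhg8, Snhg12, Snhg15, Snhg17 and Gas5, were taken from a list of noncoding host genes and are 9 of the 12727 long noncoding RNA (lncRNA) genes that RefSeq places on the chromosomes used. A gene was said to carry a MYC peak in a library when the summit of a peak lay within 1 kb of either end of its RefSeq span. The genes were chosen by their MYC peaks in these same lists, so the number of genes with a peak, their folds and their ranks are given as a description, with no test.

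MYC was immunoprecipitated from chromatin of liver tumours, frozen at death of the FVB mice, and the DNA was sequenced. Each of the 3 Arid1a genotypes had 3 MYC libraries, 9 in all, and as many inputs. Homo tumours came from mice with both Arid1a alleles floxed, Alb-cre, LAP-tta and TRE-MYC, at about 100 days of age. Het tumours carried 1 floxed and 1 intact allele with Alb-cre, LAP-tta and TRE-MYC, at about 70 days. WT tumours had both alleles floxed and the LAP-tta and TRE-MYC transgenes but no Cre, at about 55 days. All groups therefore share the liver-driven, doxycycline-controlled MYC transgene, which is switched on when doxycycline is withdrawn, and Cre and age changed along with Arid1a. Cre is driven by the albumin promoter, which is active in hepatocytes, and other cells of a tumour would keep their Arid1a alleles. Nothing in the labels ties a library to its own mouse. Peak lists hold no expression values, so neither the tissue nor the loss of Arid1a could be checked from them.

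SnoRNA host genes are transcribed by RNA polymerase II, and snoRNAs are cut out of their introns. Box C/D snoRNAs guide ribose methylation and H/ACA snoRNAs guide pseudouridylation of ribosomal RNA, so both classes serve ribosome production, a process that MYC is known to drive. The spliced exons of these genes mostly lack a conserved reading frame, and many host transcripts are decayed soon after splicing. MYC binds DNA together with MAX, preferring the E-box CACGTG and related letters close to transcription starts.

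Each library had its own list of peaks, with 112, 51 and 303 peaks in the Homo libraries, 1713, 1869 and 378 in the Het libraries and 92, 1567 and 4291 in the WT libraries, in the order of the replicate numbers. Homo replicate 2 and WT replicate 1 stood apart, with 17.6% and 15.2% of their summits at ends of protein-coding genes, against 43.9% to 64.4% in the other 7 libraries. The lowest number of reads at a listed summit was between 17 and 36, depending on the library. These numbers are not the caller's threshold, which was not given. A gene without a listed peak may therefore still be bound, below or above that level. Folds are the authors' own ratio over the local background. They are ranked within a list, and values from several lists stand side by side as a description only, since depth and background differ between libraries.

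Of the 9 host genes, 6 carried a peak in at least 1 library, against 4.25% of all lncRNA genes and 14.9% of all protein-coding genes, and 5 in at least 2 libraries (Snhg15, Snhg17, Snhg5, Snhg6 and Snhg1). Among all lncRNA genes 2.25% had a peak in at least 2 libraries, and among all protein-coding genes 8.03%, a background that includes genes not expressed in liver. Snhg15 carried a peak in all 9 libraries, Snhg17 in 8, Snhg5 in 6, Snhg6 in 3, Snhg1 in 2 and Snhg8 in 1. Snhg3, Snhg12 and Gas5 had none. A host gene never had more than 1 peak in a library, which gives 29 peaks over 81 pairs of gene and library. The plot of folds by gene and library shows that the sets were nested: every library with a peak at a gene in this order also had a peak at each gene before it. The library that lacked Snhg17 was Homo replicate 2, whose list is the shortest, and the library that alone had Snhg8 was WT replicate 3, whose list is the longest.

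**Figure D1:**
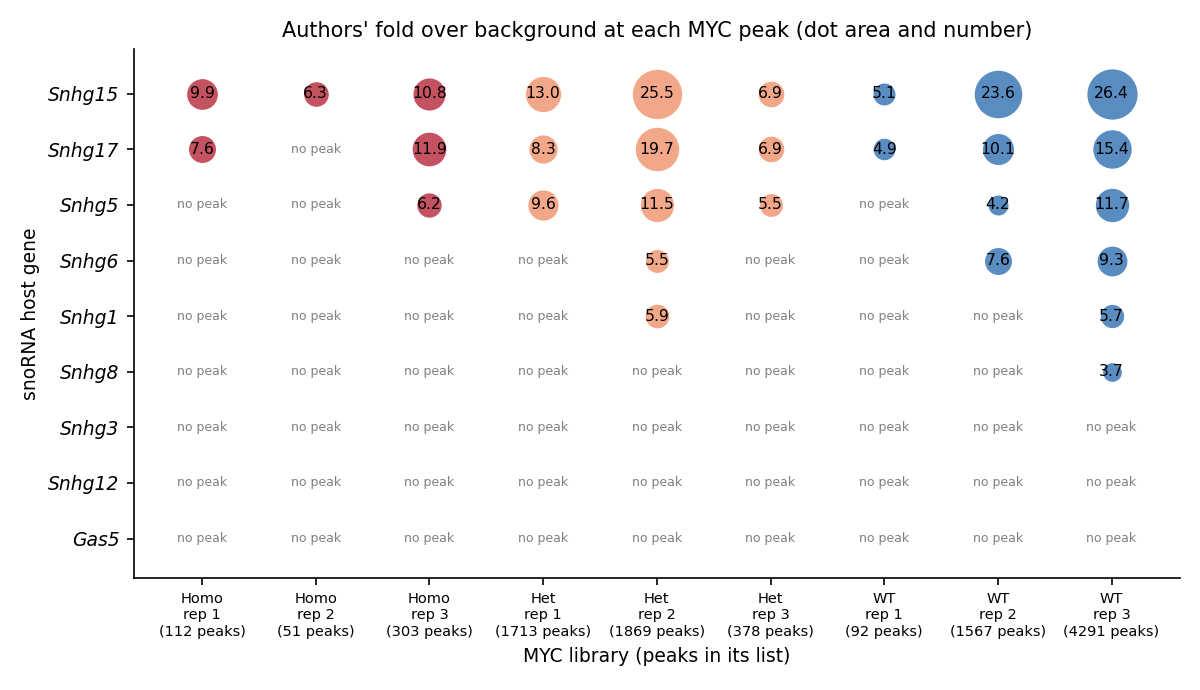
The authors' fold over background of each MYC peak (dot area and printed number) at the 9 snoRNA host genes (rows) in the 9 MYC libraries (columns, with the length of each list). Snhg15 has a peak in every column, Snhg17 in all but Homo replicate 2, and Snhg3, Snhg12 and Gas5 in none.

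By genotype, 3 of the 9 host genes had a peak in at least 1 Homo library, 5 in at least 1 Het library and 6 in at least 1 WT library. The same shares over all lncRNA genes were 0.338% in Homo, 2.28% in Het and 4.05% in WT, and over coding genes 1.03%, 7.85% and 14.3% in the same order of genotypes. Every host gene with a peak in a Homo library also had a peak in Het and WT libraries. How many of all 43 lncRNA and 225 coding genes with a Homo peak did so was not counted. Snhg6, Snhg1 and Snhg8 had peaks in Het or WT libraries and in no Homo library, a pattern that 3.91% of all lncRNA genes and 13.9% of coding genes showed. The Homo lists were shorter than all but WT replicate 1 among the WT and Het lists, so genotype and list length cannot be told apart in these counts. In bulk tumours, fewer bound cells and less MYC per cell cannot be told apart either.

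Promoter sequences from RefSeq (GRCm38.p6, the assembly behind mm10) were at hand for 8 of the 9 genes, all but Snhg6, and cover 250 bases before to 50 bases after the annotated start. They are shown for the 3 genes with the most recurrent peaks, and for Snhg12, which had none, as a contrast. Capitals mark CACGTG, which reads the same on both strands, CACGCG or its reverse complement CGCGTG, and CATGTG or its reverse complement CACATG. All sequences run 5′ to 3′ on the strand of the gene.
Snhg15 (chr11:6528711-6529010, minus strand): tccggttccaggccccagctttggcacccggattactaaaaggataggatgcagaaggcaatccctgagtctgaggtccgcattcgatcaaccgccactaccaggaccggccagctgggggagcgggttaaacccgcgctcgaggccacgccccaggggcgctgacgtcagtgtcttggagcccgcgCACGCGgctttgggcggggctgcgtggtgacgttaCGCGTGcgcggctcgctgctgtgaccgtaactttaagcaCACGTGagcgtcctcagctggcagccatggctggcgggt
Snhg17 (chr2:158361473-158361772, minus strand): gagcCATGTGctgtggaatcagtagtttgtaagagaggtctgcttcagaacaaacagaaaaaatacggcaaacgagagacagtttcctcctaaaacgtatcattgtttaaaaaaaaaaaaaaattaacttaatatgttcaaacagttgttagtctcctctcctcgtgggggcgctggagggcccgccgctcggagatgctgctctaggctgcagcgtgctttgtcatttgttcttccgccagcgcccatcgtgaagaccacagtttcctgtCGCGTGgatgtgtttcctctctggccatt
Snhg5 (chr9:88522848-88523147, minus strand): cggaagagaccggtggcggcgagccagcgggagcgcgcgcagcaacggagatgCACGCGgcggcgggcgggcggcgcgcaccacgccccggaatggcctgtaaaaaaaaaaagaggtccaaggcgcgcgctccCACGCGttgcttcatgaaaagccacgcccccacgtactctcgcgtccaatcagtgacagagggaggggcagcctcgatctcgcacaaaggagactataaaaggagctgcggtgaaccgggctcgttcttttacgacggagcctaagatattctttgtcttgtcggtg
Snhg12 (chr4:132308428-132308727, plus strand): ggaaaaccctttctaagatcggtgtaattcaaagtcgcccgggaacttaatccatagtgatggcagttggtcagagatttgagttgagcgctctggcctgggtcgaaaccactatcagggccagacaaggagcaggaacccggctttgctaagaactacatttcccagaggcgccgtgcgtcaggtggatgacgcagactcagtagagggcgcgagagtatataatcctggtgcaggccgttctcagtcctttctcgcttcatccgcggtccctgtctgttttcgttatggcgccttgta

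Snhg15 was the only host gene of the 8 with CACGTG in the window. It starts 11 bases after the annotated first base of the transcript, and CACGCG letters in either orientation begin 63 and 28 bases before that base. Snhg17 held CGCGTG 21 bases after its start and CATGTG at the far edge of the window, and Snhg5 held CACGCG at 197 and 117 bases before its start. The windows of Snhg1, Snhg3, Snhg8, Snhg12 and Gas5 (2 windows) held none of these letters, and none of the matches overlapped another. Thus 3 of 8 genes had a match, where 31.8% of all coding genes had any of these letters in a window. Among coding genes with a peak in at least 2 libraries it was 55.8%. The 3 genes were those with the most recurrent peaks, in a list chosen by its peaks, and no link was tested. Over all 32851 RefSeq promoter windows, CACGTG was in 7.15%, CACGCG in 9.27%, CATGTG in 14.2% and any of them in 28.1%. Of protein-coding genes with a peak in at least 2 libraries, 21.3% held CACGTG in a window, against 8.91% of all coding genes, and 34.5% held CACGCG, against 13.7%. CATGTG was in 12.2% of these bound coding genes, against 13.2% of all coding genes. The 10 windows of the host genes had a median GC content of 59.3% and a median of 22 CpG dinucleotides, whereas all windows had medians of 52.7% and 7.

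Among the hosts of H/ACA snoRNAs in the list of 9, Snhg15 (chromosome 11, 6525591 to 6528760, mm10) had a peak in the most libraries. In human, SNHG15 is known as a host of an H/ACA snoRNA, and the RefSeq span of the mouse gene holds 1 snoRNA gene. Its folds were 9.89, 6.32 and 10.8 in the Homo libraries, 13.0, 25.5 and 6.87 in the Het libraries and 5.07, 23.6 and 26.4 in the WT libraries. The values of the 3 genotypes overlap. By fold, the peak took rank 9 among 112 peaks, 44 among 51 and 28 among 303 in the Homo lists. In the Het lists it took rank 76 among 1713, 6 among 1869 and 178 among 378, and in the WT lists 88 among 92, 16 among 1567 and 11 among 4291. Thus fewer than 1% of the peaks had a higher fold in Het replicate 2 and WT replicates 2 and 3. The Snhg15 peak was low by fold in Homo replicate 2 and WT replicate 1, the libraries that stood apart by their gene-end share. By −log10 p it stood nearer the middle of those lists, at rank 27 among 51 and 58 among 92.

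Of all lncRNA genes, 4 had a peak in every library (0.0314%), as did 3 coding genes (0.0137%). Besides Snhg15 these lncRNA genes were Gm31068, C130036L24Rik, which lies beside Ncl, and Gm36118, which lies beside Pde4a. Ranked by fold among the lncRNA genes with a peak in the same list, Snhg15 held place 3 among 16 genes, 3 among 4 and 4 among 39 in the Homo lists. It held place 9 among 213, 1 among 223 and 23 among 48 in the Het lists, and 5 among 7, 1 among 170 and 2 among 508 in the WT lists. Its summits fell within 98 bases of each other, between 6528627 and 6528725, from 35 to 133 bases inside the transcript. They lay 21.5 to 119.5 bases downstream of the middle of the CACGTG shown above. The summits 52 bases or more inside the gene lie past the end of the promoter window, and those at 35 and 39 bases lie within it. No coding gene ends within 1 kb of it, and the nearest, the myosin gene Myo1g, is 4631 bases away and had no peak.

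**Figure D2:**
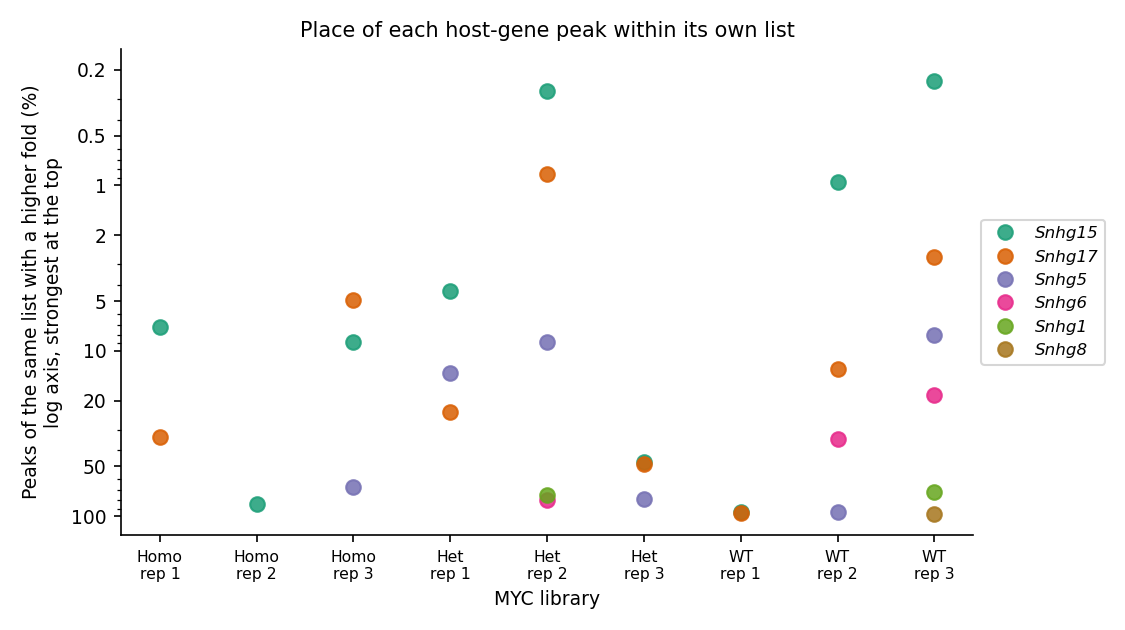
Place of each host-gene peak in its own list, as the percentage of peaks in that list with a higher fold (log axis, strongest at the top), for the 6 genes with a peak. Snhg15 reaches 0.233% in WT replicate 3 and 0.268% in Het replicate 2 but sits at 84.3% in Homo replicate 2 and 94.6% in WT replicate 1.

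The number of reads behind each peak was recovered from the authors' fold and −log10 p. Snhg15 had 114, 62 and 151 reads at the summit in the Homo libraries, 223, 162 and 87 in Het and 108, 153 and 151 in WT. The 62 reads in Homo replicate 2 have an exact 95% Poisson interval of 47.5 to 79.5, and the 223 reads in Het replicate 1 one of 195 to 254, for counting error only. The local background, in reads of the same MYC library, was 9.41, 7.66 and 10.7 in Homo, 13.99, 4.30 and 10.8 in Het and 18.3, 4.38 and 3.82 in WT. The plot of reads against background shows both values for each peak. Depth differed between libraries, so no order of binding is read from these values.

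**Figure D3:**
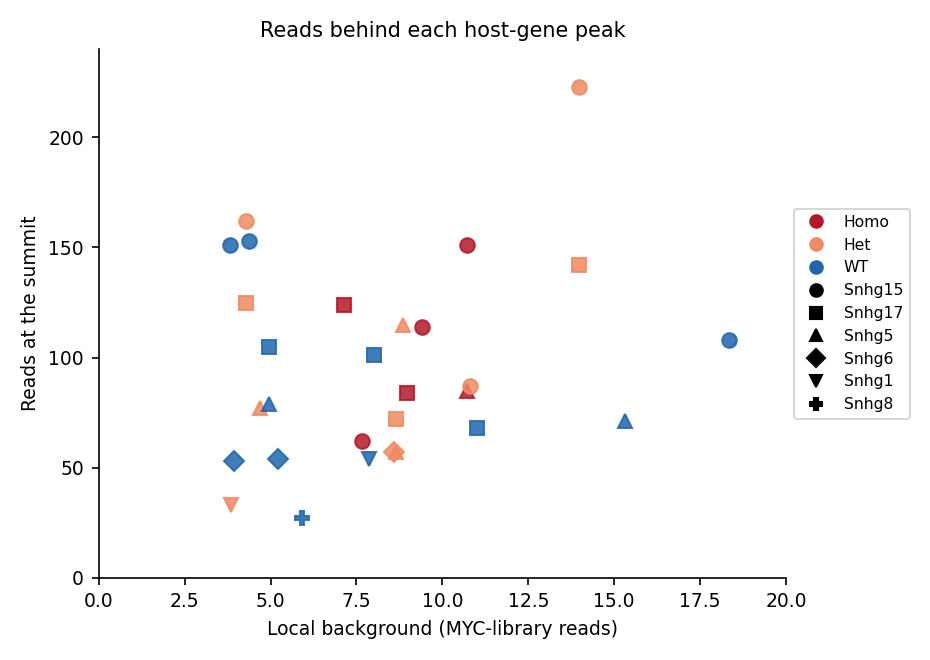
Reads at the summit against the local background in reads of the same library for all 29 host-gene peaks, with colour giving the genotype and the marker giving the gene. Snhg15 spans 62 to 223 reads over backgrounds of 3.82 to 18.3 reads, and the Snhg8 peak rests on 27 reads.

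Snhg17 (chromosome 2, 158353700 to 158361522) is likewise a host of H/ACA snoRNAs in human, and its mouse span holds 2 snoRNA genes. Its folds were 7.62 and 11.9 in Homo replicates 1 and 3, 8.32, 19.7 and 6.86 in the Het libraries and 4.88, 10.1 and 15.4 in the WT libraries. Homo replicate 2 had no peak there, and the values of the 3 genotypes overlap. By fold, the peak ranked 38 of 112 and 16 of 303 in Homo replicates 1 and 3. It ranked 405 of 1713, 17 of 1869 and 183 of 378 in the Het libraries. In the WT libraries it ranked 89 of 92, 202 of 1567 and 117 of 4291. A peak in at least 8 libraries was found at 0.0471% of lncRNA genes and 0.064% of coding genes.

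Within a list, the fold at Snhg15 was above that at Snhg17 in 7 of the 8 libraries with both peaks. The ratio of Snhg15 to Snhg17 was 1.30 and 0.909 in Homo replicates 1 and 3, 1.56, 1.29 and 1.00 in Het and 1.04, 2.34 and 1.71 in WT. In Het replicate 3 and WT replicate 1 the folds at the genes were nearly equal. Snhg17 had the higher fold in Homo replicate 3, with 124 reads over a background of 7.15, where Snhg15 had 151 reads over 10.7. The order by fold there rests on the backgrounds, for which no interval was given. By −log10 p the order in that library was the reverse, with 33.5 at Snhg15 and 30.3 at Snhg17. Snhg15 was above Snhg17 by −log10 p in every library with both peaks.

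The Snhg17 summits covered 88 bases, from 43 to 131 bases inside the transcript. They lay 19.5 to 107.5 bases downstream of the middle of the CGCGTG shown above. Only the summits at 43 and 55 bases lie within the 2 promoter windows of this gene, so the letters at the others were not searched. In this gene the Homo summits were the farthest from the start, at 131 and 125 bases. The Het summits stood at 55, 103 and 83 bases and the WT summits at 43, 66 and 64 bases. This order was noticed after the positions were seen and was not tested. At Snhg15 the corresponding distances overlapped, with 79, 133 and 52 bases in Homo, 54, 80 and 35 in Het and 78, 92 and 39 in WT. The nearest coding gene to Snhg17, Lbp, which encodes the lipopolysaccharide binding protein of liver, is 20848 bases away and had no peak.

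**Figure D4:**
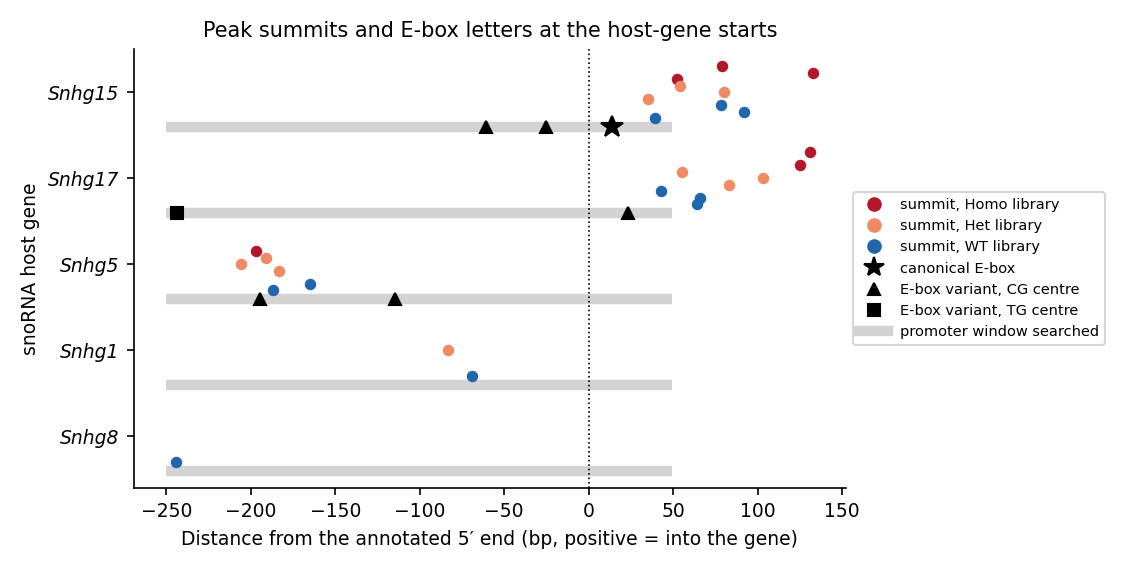
Distance of each MYC summit (dots, coloured by genotype) from the annotated 5′ end of the host gene, with E-box letters found in the promoter window (grey bar) as black symbols. Snhg15 and Snhg17 summits lie 35 to 133 bases inside the gene, and the Snhg5 summits lie 165 to 206 bases before it. Snhg6 is left out because its promoter window and strand were not at hand.

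The other listed H/ACA hosts had a peak in at most 1 library. Snhg8 (chromosome 3, 123507552 to 123508336), the host of Snora24, had a single peak in WT replicate 3 with a fold of 3.68, ranked 4167 of 4291 by fold and resting on 27 reads over a background of 5.91. Its summit lay 244 bases before the annotated start, the farthest from a gene end of all host-gene summits. The pseudogene Gm9369 has an end 983 bases from that summit. Snhg3 (chromosome 4, 132351933 to 132353686), which holds Snora73a and Snora73b, had no summit within 1 kb. The nearest MYC summits, 6298 to 6379 bases from its span, were at the 5′ end of Rcc1, the gene for the nucleotide exchange factor of Ran, which was looked at because of this. Rcc1 had folds of 5.44 in Homo replicate 3, 8.29 and 8.40 in Het replicates 1 and 2 and 4.28 and 12.7 in WT replicates 2 and 3. The nearest coding gene on the other side, Phactr4, is 2236 bases from Snhg3, and its single peak, in WT replicate 3, was 68893 bases away. Snhg12 (chromosome 4, 132308678 to 132311024), which holds Snora16a, Snora44, Snora61 and the box C/D Snord99, lies 40909 bases from Snhg3, and its nearest summit in any library was 18443 bases away.

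The listed hosts of box C/D snoRNAs had a peak in 6 (Snhg5), 3 (Snhg6), 2 (Snhg1) and 0 (Gas5) libraries. Snhg5 (chromosome 9, 88521052 to 88522897) is in human the host of box C/D snoRNAs, and its mouse span holds 2 snoRNA genes. Its folds were 6.19 in Homo replicate 3, 9.59, 11.5 and 5.47 in the Het libraries and 4.18 and 11.7 in WT replicates 2 and 3. The values of the genotypes overlap. At least 6 libraries had a peak at 0.228% of lncRNA genes and 0.521% of coding genes. In WT replicate 2 the peak ranked 1478 of 1567 by fold, with 71 reads over a background of 15.3, and 988 by −log10 p. In WT replicate 3, 79 reads over a background of 4.97 gave the rank 346 of 4291. The ranks by fold were 204 of 303 in Homo replicate 3 and 236 of 1713, 167 of 1869 and 298 of 378 in the Het libraries.

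The Snhg5 summits fell within 41 bases, 165 to 206 bases before the annotated start, and unlike those at Snhg15 and Snhg17 they lay outside the transcript. They straddled the first CACGCG of the sequence shown above, from 11.5 bases upstream to 29.5 bases downstream of its middle. The nearest coding gene, the zinc finger gene Zfp949, was 25123 bases away and without a peak. Snhg15, Snhg17 and Snhg5 thus form the 3 recurrent host genes whose peak had no coding gene end within 1 kb.

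Snhg6 (chromosome 1, 9942025 to 9944118), the host of Snord87, had folds of 5.50 in Het replicate 2 and 7.60 and 9.30 in WT replicates 2 and 3, and no peak in a Homo library. The ranks by fold were 1499 of 1869 in Het replicate 2 and 535 of 1567 and 796 of 4291 in WT replicates 2 and 3. The summits fell within 49 bases at the upper end of the span, 3 to 46 bases from it. They rested on 57 reads in the Het library and 54 and 53 in the WT libraries. The peak is shared by position with Mcmdc2, a minichromosome maintenance domain gene whose span overlaps that of Snhg6 and ends 466 to 515 bases from the summits. Without the strand of either gene, the peak could not be assigned to a start.

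Snhg1 (chromosome 19, 8723487 to 8726326), the host of Snord22 with 8 snoRNA genes in its span, had folds of 5.86 in Het replicate 2 and 5.68 in WT replicate 3. By fold they ranked 1401 of 1869 and 3085 of 4291, and by −log10 p 1504 and 1914 in the same lists, with 33 and 54 reads at the summit. The summits, 83 and 69 bases before the start of Snhg1, lay between that start and the start of Slc3a2, which is transcribed in the opposite direction 118 bases away. Slc3a2 encodes the heavy chain of amino acid transporters, and its start was 35 and 49 bases from the summits, closer than that of Snhg1. A peak in this position cannot be given to either gene alone.

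Gas5 (chromosome 1, 161034601 to 161038539), named for its accumulation in growth-arrested cells, also has 8 snoRNA genes in its span, among them Snord47. No MYC summit was found within 1 kb of it in any library, and the nearest was 56090 bases away. The zinc finger gene Zbtb37, whose span overlaps that of Gas5, had no peak either. Because no host-gene summit lay farther than 244 bases from an end and the nearest summit of a gene without a peak was 6298 bases off, the 1 kb limit decided none of these calls.

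Genes with a peak in exactly the same libraries as a host gene were compared by the mean absolute difference of log2 fold over those libraries. For Snhg15 there were 3 such coding genes: Ube2cbp (difference 0.26 over 9 libraries), Pde4a (0.45), which encodes a cyclic AMP phosphodiesterase, and Ncl (0.50), which encodes nucleolin. For Snhg17 there were 7, the closest being Vars, the valyl-tRNA synthetase gene, and D17H6S56E-5, which share a peak (0.38 over 8 libraries), and the tRNA exporter gene Xpot (0.43). For Snhg5 there were 50, led by the neighbours Gnl3, for a nucleolar GTPase, and Pbrm1 (0.19 over 6 libraries), with Ddx21, for a nucleolar helicase, next (0.20). For Snhg6 there were 112, with the histone genes H2ac22 and H2bc22 closest (0.09 over 3 libraries) after Mcmdc2, which has the same peak.

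SnoRNAs are hosted by other genes too, and these were counted in the same way. Host genes were RefSeq genes whose span holds a snoRNA gene with a Snord, Snora or Scarna symbol, together with noncoding hosts from a list of 12 symbols, and none of these lists was tested. Only 132 of 1340 RefSeq snoRNA genes carry such a symbol. Of 66 coding host genes 43 had a peak in at least 2 libraries (65.2%), with a median of 3 libraries, against 8.03% and a median of 0 for all coding genes. Over the 372 coding hosts of any RefSeq snoRNA, a rule added after the data were seen, 89 had a peak in at least 2 libraries (23.9%), with a median of 0. The most recurrent was Ncl, the host of Snord82 and Snora75, with a peak in all 9 libraries and folds between 8.92 and 25.5. Ncl had the higher fold in 5 of 9 lists and Snhg15 in the other 4. Tbrg4 (host of Snora5c), Rpl12 (Snora65), Rpl32 (Snora7a) and Rpl5 (Snord21) followed with 7 libraries, each with 2 Homo, 3 Het and 2 WT, and Snx5 (Snord17), Wdr43 (Snord92 and Snord53), Gnl3 (Snord69 and Snord19) and Nop56 (Snord110 and Snord57) with 6.

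Of 22 other noncoding host genes, 4 had a peak in at least 2 libraries (18.2%), against 2.25% of all lncRNA genes. Over 99 noncoding hosts of any RefSeq snoRNA, by the same added rule, it was 10 (10.1%). The 4 genes were 2700038G22Rik, the host of Snord93, with a peak in 1 Homo, 3 Het and 2 WT libraries and folds of 6.10 to 12.1, Dancr (Snora26) in 2 Het libraries and 1 WT library, 2410006H16Rik (Snord49a, Snord49b and Snord65) in 2 WT libraries, and Snhg4 (Snora74a) in 1 Het and 1 WT library. Snhg9, Snhg10, Snhg16, Zfas1, Epb41l4aos and 1110038B12Rik had a peak in 1 library each. Snhg7, Snhg11, Snhg14, Snhg18 and Snhg20 had none. The 9 host genes described above were chosen with their peaks known, so their count is not set against these 22.

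The proteins that assemble on snoRNAs were described beside their RNA hosts. Of the 8 genes for snoRNP core proteins, 6 had a peak in at least 2 libraries, against 8.03% of all coding genes. In the box C/D particle, Nop56 had a peak in 6 libraries with folds of 4.81 to 16.4, Nop58 in 5 with folds of 4.79 to 9.32, Fbl, the methyltransferase, in 4 with folds of 8.05 to 13.7, and Snu13 in 1. In the H/ACA particle, Dkc1, the pseudouridine synthase, and Gar1 had a peak in 5 libraries each, Nhp2 in 4 and Nop10 in 1. No core gene had a peak in Homo replicate 2, Het replicate 3 or WT replicate 1, where 0.0548%, 0.854% and 0.0731% of all coding genes had one.

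**Figure D5:**
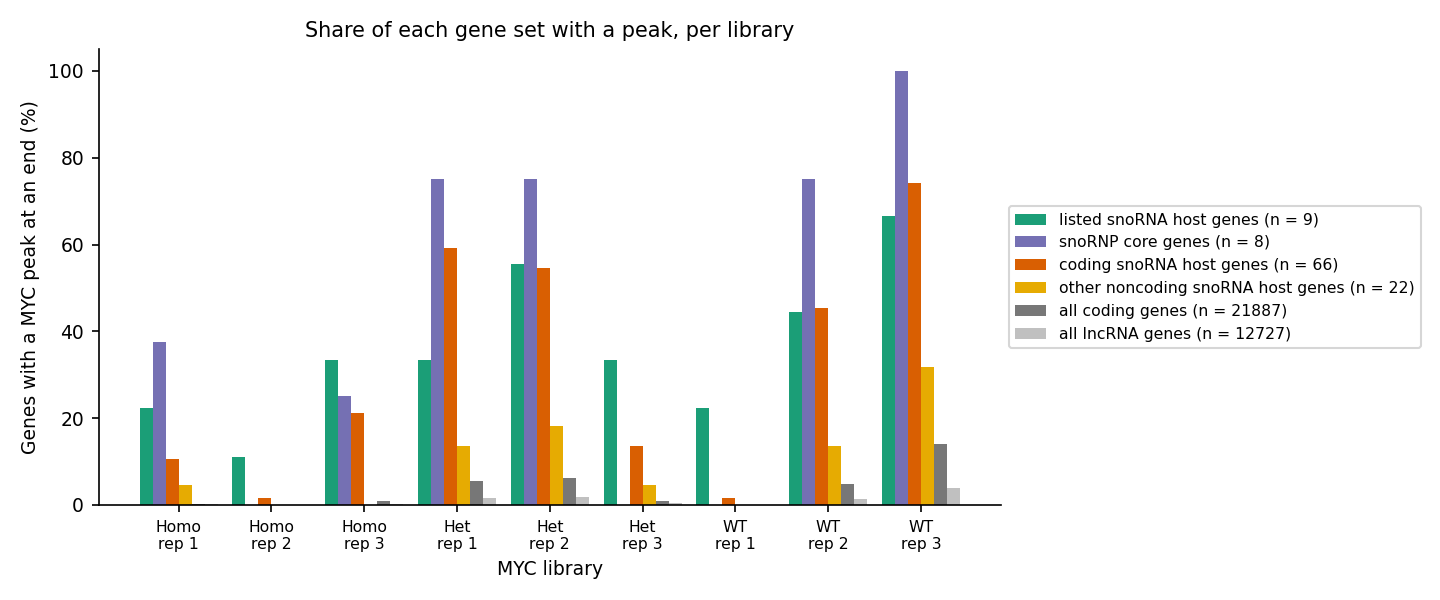
Percentage of each gene set with a MYC peak at an end in each library, for the 9 listed snoRNA host genes, 8 snoRNP core genes, 66 coding and 22 other noncoding snoRNA host genes, and all coding and lncRNA genes. The share of listed host genes is lowest in Homo replicate 2 (11.1%, which is 1 gene) and highest in WT replicate 3 (66.7%).

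Per library, 2, 1 and 3 of the 9 host genes had a peak in Homo, 3, 5 and 3 in Het and 2, 4 and 6 in WT, in replicate order. The share of all lncRNA genes with a peak was 0.126%, 0.0314% and 0.306% in Homo, 1.67%, 1.75% and 0.377% in Het and 0.055%, 1.34% and 3.99% in WT. For coding genes it was 0.324%, 0.0548% and 0.918% in Homo, 5.58%, 6.14% and 0.854% in Het and 0.0731%, 4.86% and 14.1% in WT. The longest list had the most host genes with a peak and the shortest list the fewest. Even in the shortest lists, of 51, 92 and 112 peaks, Snhg15 had a peak each time, and Snhg17 also had one in those of 92 and 112.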

How the data were processed

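Peak lists of 9 MYC libraries were analysed. Inputs had no separate file used here. Per the submitters' processing notes, the authors used MACS2 2.0.10.20131216, Bowtie2 2.2.3, HOMER and Picard, with the build mm10. For the caller's threshold, nothing was given in the sources used. The deposited lists hold, per peak, a fold (ratio over background), −log10 p and −log10 q, an integer score, and the summit offset (a coordinate, not a signal). There is 1 list per library.

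Summits were matched to ends of RefSeq spans (GRCm38.p6) within 1 kb. Fold and −log10 p were solved together for whole reads and background, assuming a Poisson tail. Reads were taken as scaled to the input by 1 ratio per library, between 0.272 and 0.508. A pseudocount of 1 was added in the fold on that scale. The reads printed are unscaled, and the backgrounds printed were divided by the ratio, to stand in reads of the MYC library. Their quotient is not the fold, because of the pseudocount. A unique solution was found for 99.4% of peaks and all 29 reported peaks (tolerance 0.002 on the scaled reads, wider at the highest summits). Both steps were tested on simulated data. The simulated reads used the same fold and Poisson forms, so that test cannot show whether the caller used them. They did not go as low as at Snhg8 or at Snhg1 in Het replicate 2, or as high as the highest at Snhg15. Python 3.11.15, pandas 2.3.3 and scipy 1.17.1 were used.

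Members and lists were chosen with earlier results of these data known. Genes named are the members, genes sharing their peaks, noncoding hosts in at least 2 libraries, the 8 most recurrent coding hosts (Nop56 ties with the last 3), 8 snoRNP genes and up to 3 similar genes per member. SnoRNA genes near a summit that carry only a locus number, all inside the host spans, were left unnamed. Rcc1, nearest coding genes without a peak, and noncoding hosts in fewer libraries were named after their values were seen. No test was run.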

Additional observations from a re-analysis of the deposited data

How the results depend on the processing

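With windows of 250 bp or 5 kb, −log10 q or fold of at least 5, or any base of the peak within 1 kb, the number of host genes with a peak in at least 2 libraries was 5 each time, and pairs of gene and library ranged from 26 to 29. Other noncoding hosts in at least 2 libraries ranged from 3 to 5 under these settings, and coding hosts from 34 (250 bp) to 44 (5 kb). The Snhg8 peak was lost at −log10 q or fold of at least 5. Leaving out each library in turn gave 4 to 5 host genes in at least 2 libraries, 23 to 28 pairs, and 2 to 3, 3 to 5 and 4 to 6 host genes with a peak in Homo, Het and WT libraries. The Het count was 3 without Het replicate 2. Without each library in turn, other noncoding hosts ranged from 2 (without WT replicate 3) to 4, and coding hosts from 37 to 43. Counting hosts of any RefSeq snoRNA, chosen after seeing the data, gave 10 of 99 other noncoding hosts and 89 of 372 coding hosts. That rule adds host genes, and the cause of its lower shares was not tested. Without WT replicate 1 and Homo replicate 2 together, also added later, 5 host genes and 26 pairs were counted. Ranking by −log10 p in place of fold moved the median place in the lists to 1.65% for Snhg15 (7.14% by fold), 5.96% for Snhg17 (18.2%), 26.1% for Snhg5 (40.4%), 31.7% for Snhg6 (34.1%), 62.5% for Snhg1 (73.4%) and 99.3% for Snhg8 (97.1%). No paired analysis was possible because no label ties a library to a mouse or batch, and the results are counts of listed peaks with no fit. The lowest reads at a listed summit were 17 to 36 by library, and the caller's threshold was not given. Sites with more reads may also be unlisted, which limits every absence.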
